A study of Arabidopsis thaliana with 9 samples.

Results

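The genes described here are 6 regulators of root and shoot patterning: LHW (AT2G27230) and JKD (AT5G03150), known from vascular tissue and root, PHV (AT1G30490) and YAB3 (AT4G00180), known from leaf polarity, TCP15 (AT1G69690), known from leaf growth, and SPT (AT4G36930), known from the carpel. They were chosen by name, as the probe sets whose single annotated gene is 1 of these 6. Each gene had 1 probe set, so they are 6 of the 11228 probe sets tested and 6 of the 5981 that belong to a single gene. Transcript levels were measured on 9 Affymetrix arrays of wild-type Arabidopsis thaliana, with total RNA of whole seedlings, and the stated aim of the study was to find genes affected by the compound FPX. The groups were 0_d, seedlings 4 d old on MS medium and not yet moved, FPX_2_d, seedlings moved at that age to MS medium with 45 µM FPX and kept there for 2 d, and FPX_8_d, the same for 8 d, with 3 arrays each. Seedlings on FPX were 6 and 12 d old when collected, and no untreated seedlings of 6 or 12 d were analysed here. Time on FPX and age therefore cannot be told apart in any of the contrasts, 8 d against 2 d included. In contrasts with 0 d a batch cannot be told apart from FPX either, as the raw data behind the 0 d values are also those of another series. In RNA of whole seedlings fewer cells of a type and less RNA per cell cannot be told apart.

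All 6 genes encode transcription factors. LHW is a basic helix-loop-helix protein that acts with partners of the TMO5 group to drive cell divisions that widen the vascular cylinder, and JKD is a zinc finger protein of the root ground tissue that limits how far the mobile regulator SHR spreads. PHV is a class III homeodomain leucine zipper protein that promotes the upper, adaxial side of leaves and also takes part in vascular patterning, while YAB3 is a YABBY protein of the lower, abaxial side. TCP15 is a class I TCP protein that affects cell division and growth in young leaves and stems. SPT is a basic helix-loop-helix protein needed for the style, stigma and septum of the carpel that also restrains the growth of cotyledons and leaves in seedlings.

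The values were MAS5 signals on a linear scale, and all changes below are differences of log2(signal + 16) or the folds these give, which understates those of dim probe sets. The table held probe sets that differ between the 3 groups: a one-way comparison passed at 0.04 for 11202 of the 11228. A call is therefore common here, and counts of the 6 genes are to be read against the share of all probe sets called (the background). All probe sets means those of this table. Its rows appear chosen for a difference among these same arrays, so the adjusted p-values are likely too small. Below, a measured gene is one present in this table under its name. An absent locus may have been on the array and left out as unchanged. How many list genes were called in either direction was thus largely set in advance. Within a group, pairs of arrays had r = 0.987 to 0.991 across probe sets. Over all probe sets the log2 changes had a median of 0.17 (2 d) and 0.36 (8 d), against −0.01 and 0.11 with array medians set equal, so the changes of the 6 genes are also given on that second scale. Spiked controls moved down on average, those for hybridization by −0.10 (2 d) and −0.25 (8 d) on the log2 scale and those with poly(A) tails by −0.37 and −0.57.

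After 2 d on FPX, LHW, PHV and JKD were higher than at 0 d and TCP15 was lower, and after 8 d SPT was higher as well and YAB3 lower. At 2 d 4 of the 6 genes were called, beside 72.7% of all probe sets: 3 were higher (background 44.6%) and 1 was lower (background 28.1%). At 8 d all 6 were called, beside 91.0% of probe sets, with 4 higher and 2 lower (backgrounds 54.9% and 36.1%), so a call by itself says little about these genes and their sizes and timing carry the description. Between 2 d and 8 d, LHW and PHV rose further, SPT rose without a called rise before, and YAB3 and TCP15 fell. That is 5 calls beside 76.0% of probe sets, with 3 rises and 2 falls (backgrounds 43.9% and 32.1%). The arrays of the groups compared did not overlap for 4 genes at 2 d, 6 at 8 d and 5 between 2 d and 8 d, beside 76.3%, 91.8% and 79.7% of all probe sets. Both genes of vascular tissue and root, LHW and JKD, rose at 2 d and at 8 d, with a median log2 change of 0.86 and 1.28, though the call of JKD at 8 d ended under 2 of the 3 other scalings. The 4 genes of leaf and carpel split, with PHV higher and TCP15 lower at 2 d and PHV and SPT higher and YAB3 and TCP15 lower at 8 d, and medians of −0.08 and 0.22. With 2 and 4 genes these classes were not tested against each other.

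**Figure D1:**
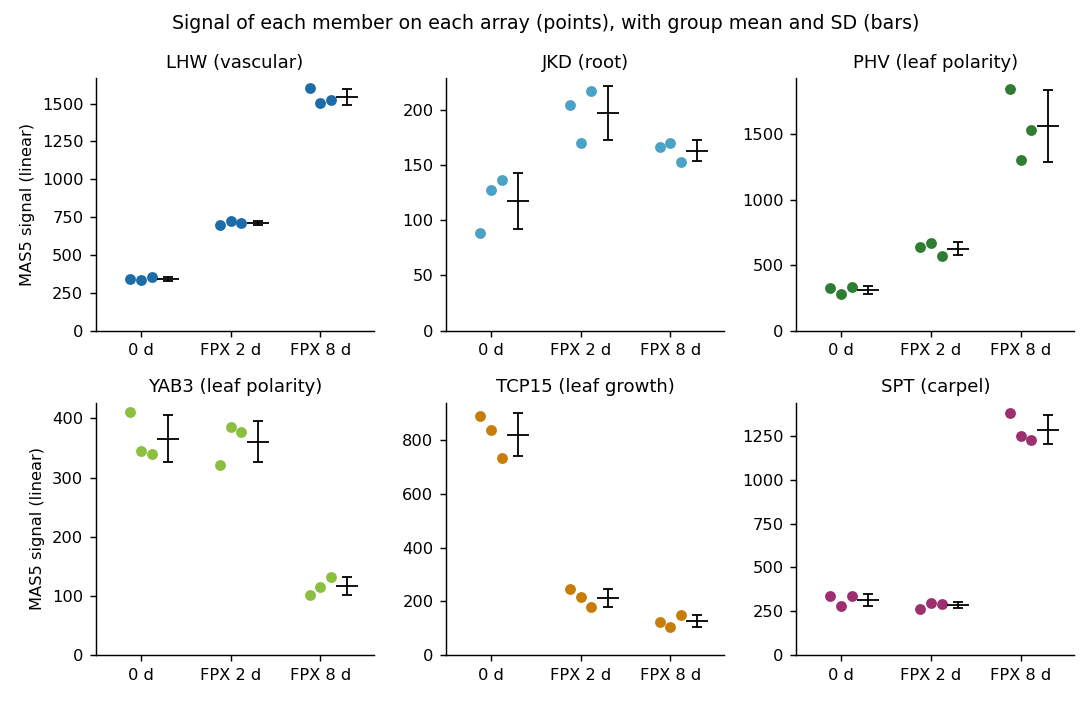
MAS5 signal (linear axis from 0) of LHW, JKD, PHV, YAB3, TCP15 and SPT on each of the 9 arrays (points), by group, with the mean and SD of the 3 arrays as a bar beside them. LHW and PHV step up at both times, SPT stands higher and YAB3 lower at 8 d, TCP15 drops by 2 d, and JKD stays within 88.4 to 217.

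On the log2 scale LHW climbed in even steps, about as much in the first 2 d as in the next 6. Its signal was 338, 333 and 355 at 0 d, 696, 724 and 712 after 2 d and 1603, 1504 and 1526 after 8 d. No array of one group overlapped another, and the groups varied little, with a coefficient of variation of 3.45%, 1.99% and 3.35%. At 2 d LHW was 2.03-fold higher than at 0 d, a log2 change of 1.02 ± 0.08 (SE, limma adjusted p = 5.97e-07). At 8 d it was 4.36-fold higher (95% interval 3.89 to 4.89, adjusted p = 8.1e-10 in limma), and the log2 rise at 2 d was 48.1% of that at 8 d. With array medians set equal the changes were 0.84 and 1.87. A rise at least as large at 8 d was found for 333 probe sets, 2.97% of all.

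In the list of vascular division and LHW partners, 2 of 16 loci were measured by name. The other one, AT2G28510, which the annotation used here gives no name, had 440.0, 365 and 524 at 0 d, 543, 575 and 560 after 2 d and 1125, 762 and 951 after 8 d. It rose at 8 d by 1.06 ± 0.15 on the log2 scale (adjusted p = 3.19e-05, limma) and had a change of 0.34 at 2 d that missed the threshold (adjusted p = 0.0557), although the arrays did not overlap. That change was 0.16 with array medians set equal (adjusted p = 0.341) and 0.17 after quantile normalization (adjusted p = 0.311), and it passed only under the scaling on hybridization controls (0.44, adjusted p = 0.00971). Both measured loci of this list, LHW itself included, were thus called higher at 8 d, as were 54.9% of all probe sets. Their median log2 change, which LHW enters, was 1.59 beside 0.36 for all probe sets.

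JKD rose early and had the smallest change of the 6 genes at 8 d. Its signal was 88.4, 127 and 136 at 0 d, 205, 169 and 217 after 2 d and 166, 170.0 and 153 after 8 d. All treated arrays lay above all 0 d arrays, while the groups at 2 d and 8 d overlapped. The rise was 1.61-fold at 2 d (95% interval 1.31 to 1.99, limma adjusted p = 0.00101) and 1.36-fold at 8 d (1.10 to 1.68, adjusted p = 0.0097). At 2 d the log2 change was smaller but still called with array medians set equal (0.51, adjusted p = 0.00602) and after quantile normalization (0.42, adjusted p = 0.0205). The change between 2 d and 8 d, −0.25 on the log2 scale with an interval of −0.55 to 0.06, was not called (adjusted p = 0.126). JKD was the dimmest of the 6 probe sets and the only one of them among the 2807 dimmest of the table, and its 0 d arrays had a coefficient of variation of 21.6%. The call at 8 d ended with array medians set equal (0.19, adjusted p = 0.211) and after quantile normalization (0.12, adjusted p = 0.433), and 46.3% of all probe sets rose at least as much. Without 0 d replicate 1, its lowest array, the rise was 0.52 at 2 d and 0.28 at 8 d, against 0.69 and 0.44 with it, and the fall between 2 d and 8 d passed (adjusted p = 0.0485).

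Of 16 loci of root ground tissue and the root stem cell niche, 2 were measured by name, and they differed at 8 d. AT3G45260, unnamed in the annotation used here, had 125, 173 and 165 at 0 d, 161, 249 and 184 after 2 d and 94.5, 90.0 and 82.7 after 8 d. Its arrays at 8 d lay below all others, with a log2 change of −0.69 ± 0.15 against 0 d (limma adjusted p = 0.00109) and of −1.01 against 2 d (adjusted p = 0.000109). Its change at 2 d was 0.32 (adjusted p = 0.0751). It was 0.14 with array medians set equal (adjusted p = 0.419) and 0.02 after quantile normalization (adjusted p = 0.932), and it passed only under the scaling on hybridization controls (0.42, adjusted p = 0.0305). Within arrays, the log2 difference of JKD minus AT3G45260, set to a mean of 0 at 0 d, was 1.08, 1.17 and 1.13 on the 8 d arrays and between −0.07 and 0.11 on those of 0 d.

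PHV and YAB3, on opposite sides of leaf polarity, moved apart. PHV had a signal of 324, 279 and 336 at 0 d, 636, 669 and 574 after 2 d and 1850.3, 1303 and 1534 after 8 d. The groups did not overlap, and the 8 d arrays spread most, with an SD of 275 around a mean of 1562. PHV was 1.95-fold higher at 2 d than at 0 d (log2 change 0.97 ± 0.13, limma adjusted p = 4.69e-05) and 4.76-fold higher at 8 d (95% interval 3.93 to 5.78, adjusted p = 1.82e-08). Between 2 d and 8 d it rose by another 1.29 on the log2 scale. With array medians set equal its changes were 0.79 at 2 d and 2.00 at 8 d, and 2.25% of all probe sets rose at least as much at 8 d. It was the only one of 10 loci of class III homeodomain leucine zipper genes and adaxial polarity that was measured by name.

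YAB3 had no called change at 2 d and was lower at 8 d. Its signal was 411, 345 and 340.1 at 0 d and 321, 385 and 377 after 2 d, groups that overlapped, and 101, 115 and 132 after 8 d, below every other array. The log2 change at 2 d was −0.02 with a 95% interval of −0.27 to 0.24 (limma adjusted p = 0.905). Its sign turned under the scaling on hybridization controls (0.09) and without 0 d replicate 1 (0.07) or FPX 2 d replicate 1 (0.06). The change at 2 d was −0.19 with array medians set equal (adjusted p = 0.161) and −0.25 after quantile normalization (adjusted p = 0.0665). At 8 d YAB3 was 2.89-fold lower than at 0 d (2.43 to 3.44, log2 change −1.53, adjusted p = 1.8e-07 in limma), and the fall from 2 d was −1.52. With array medians set equal the change at 8 d was −1.79.

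Its relative YAB5 (AT2G26580), another YABBY gene expressed in leaves, was the other locus measured among 12 of YABBY, KANADI and abaxial polarity genes. YAB5 had 209, 209 and 192 at 0 d, 251, 176 and 219 after 2 d and 104, 138 and 84.6 after 8 d. As for YAB3, the groups at 0 d and 2 d overlapped and the 8 d arrays lay lowest, with log2 changes of 0.06 at 2 d (limma adjusted p = 0.713) and −0.83 at 8 d (adjusted p = 0.000323). The change at 2 d was −0.11 with array medians set equal and −0.23 after quantile normalization. Both YABBY genes were called lower at 8 d (background 36.1%), and their median, which YAB3 itself enters, was −1.18, beside 0.36 for all probe sets. Within arrays, PHV minus YAB3 on the log2 scale, set to a mean of 0 at 0 d, was 1.16, 0.98 and 0.80 after 2 d and 4.21, 3.54 and 3.60 after 8 d, against −0.11 to 0.19 at 0 d.

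**Figure D2:**
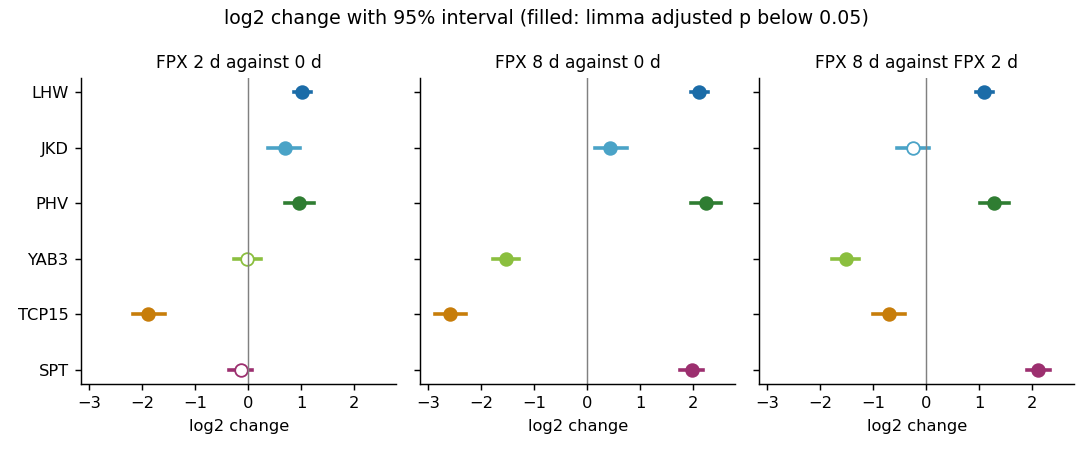
log2 change (x axis, points) of each of the 6 genes in the 3 contrasts, with its 95% interval from limma (lines), filled where the adjusted p is below 0.05. YAB3 and SPT sit at −0.02 and −0.14 at 2 d and at −1.53 and 1.98 at 8 d, while TCP15 is already at −1.88 at 2 d.

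TCP15 had the largest changes of the 6 genes at both times against 0 d on the signal as deposited, both falls, and most of the fall came early. Scaled on hybridization controls, its change at 8 d (−2.34) was smaller in size than those of PHV (2.50) and LHW (2.37). Its signal was 890, 839 and 734 at 0 d, 245, 215 and 179 after 2 d and 122, 104 and 148 after 8 d. No groups overlapped. It was 3.67-fold lower at 2 d than at 0 d (95% interval 2.98 to 4.53, limma adjusted p = 5.81e-07) and 5.97-fold lower at 8 d (4.84 to 7.37, adjusted p = 1.2e-08). On the log2 scale these are −1.88 and −2.58, so 72.8% of the change at 8 d was there at 2 d. The further change from 2 d to 8 d was −0.70 ± 0.14 (adjusted p = 0.000767 in limma). Only 138 probe sets (1.23%) fell at least as much at 2 d. With array medians set equal the changes were −2.06 and −2.83. No other locus of the 24 TCP genes, and none of 15 loci of growth-regulating factors, their coactivators and other leaf growth genes, was measured by name.

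SPT had no called change at 2 d on the signal as deposited and was higher at 8 d, with the largest change of the 6 genes between 2 d and 8 d. Its signal was 335, 277 and 336 at 0 d and 265, 294 and 292 after 2 d, groups that overlapped, and 1385, 1251 and 1229 after 8 d. The log2 change at 2 d was −0.14 (95% interval −0.36 to 0.07, limma adjusted p = 0.201), while with array medians set equal or after quantile normalization it passed as a fall, at −0.32 (adjusted p = 0.0133) and −0.40 (adjusted p = 0.00421). At 8 d SPT was 3.94-fold higher than at 0 d (3.40 to 4.57, adjusted p = 6.75e-09) and 4.35-fold higher than at 2 d (3.75 to 5.05, adjusted p = 1.73e-08 in limma). A rise from 2 d to 8 d at least as large was found for 88 probe sets, 0.784% of all. With array medians set equal the change at 8 d was 1.72.

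The other measured carpel genes moved in other ways. ALC (AT5G67110), the closest relative of SPT, needed for the opening of the fruit, had 322, 297 and 295 at 0 d, 140.0, 137 and 186 after 2 d and 114, 171 and 116 after 8 d. Every treated array of ALC lay below every 0 d array, with log2 changes of −0.92 ± 0.15 at 2 d (limma adjusted p = 0.000214) and −1.12 at 8 d (adjusted p = 2.24e-05). The pair thus went opposite ways at 8 d, and SPT minus ALC within arrays, set to a mean of 0 at 0 d, was 3.38, 2.71 and 3.19 after 8 d and 0.80, 0.97 and 0.56 after 2 d. SEU (AT1G43850), a transcriptional coregulator of flower and carpel development, had 356, 359 and 337 at 0 d, 646, 549 and 576 after 2 d and 743, 864 and 775 after 8 d. It rose by 0.72 at 2 d (adjusted p = 3.64e-05) and 1.14 at 8 d (adjusted p = 3.14e-07), with no overlap of groups. Of the 21 loci of the carpel list these 3 were measured by name, with 2 higher and 1 lower at 8 d, near the backgrounds of 54.9% and 36.1%. None of 14 loci of the shoot meristem and shoot regeneration was measured by name.

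**Figure D3:**
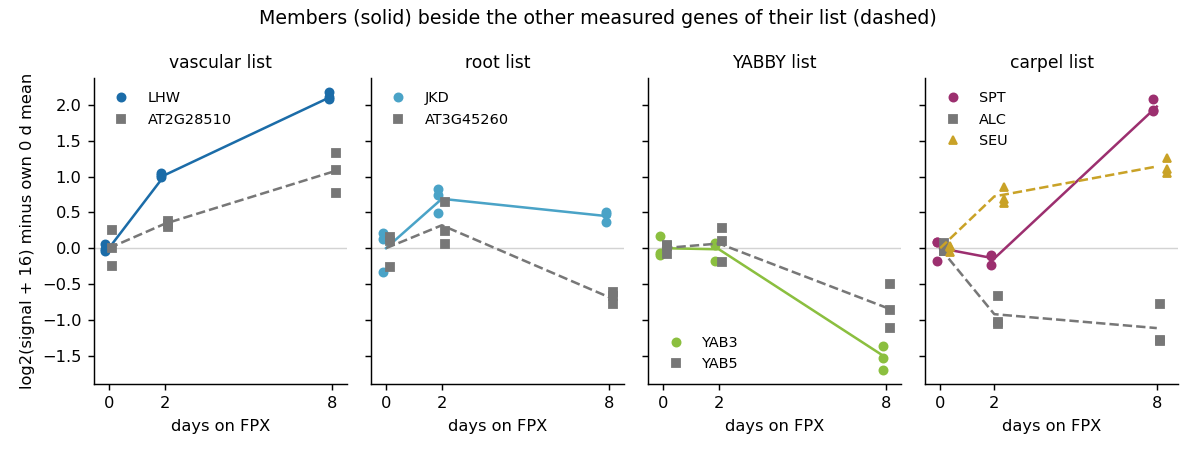
log2(signal + 16) minus the gene's own 0 d mean (y axis) over days on FPX (x axis), with points for arrays and lines through group means, for LHW, JKD, YAB3 and SPT (solid) and the other measured genes of their lists (dashed). YAB5 follows YAB3 down at 8 d, whereas ALC falls where SPT rises and AT3G45260 ends below its start where JKD ends above.

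LHW and PHV had nearly the same profile. The Euclidean distance between their 9 log2 values, each centred on its own 0 d mean, was 0.43 (r = 0.99 over the 9 arrays, in which 3 groups set most of the spread). Of 908 named genes only 1 lay nearer to LHW than PHV did, and no named gene lay nearer to PHV than LHW. The next nearest pair of the 6, PHV and SPT, lay 2.01 apart, and the farthest, PHV and TCP15, 9.72. Over all probe sets, 21.5% had the calls of LHW and PHV (higher at 2 d, at 8 d and between them), 11.9% those of TCP15, 10.6% those of YAB3 and 14.0% those of SPT.

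Among named genes outside the 6, NET1A, which encodes an actin-binding protein, was nearest to LHW (distance 0.30 over 9 arrays) and the second nearest to PHV (0.50). ZCW7 (0.44) and the glycosyl hydrolase gene GH9C2 (0.49) were nearest to JKD. CaS, which encodes a calcium-sensing protein of the chloroplast thylakoid, and the aldehyde dehydrogenase gene ALDH11A3 were nearest to YAB3, at 0.39 and 0.42. CaS changed by 0.01 at 2 d and −1.41 at 8 d on the log2 scale, and ALDH11A3 by −0.01 and −1.34. TUB1, a beta-tubulin gene, was nearest to TCP15 (0.39), with −1.80 at 2 d and −2.56 at 8 d, followed by the alkenal reductase gene AER (0.79). The glutathione transferase gene GSTU25 (0.63) and the transcript listed as ccb452 (0.66) were nearest to SPT.

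**Figure D4:**
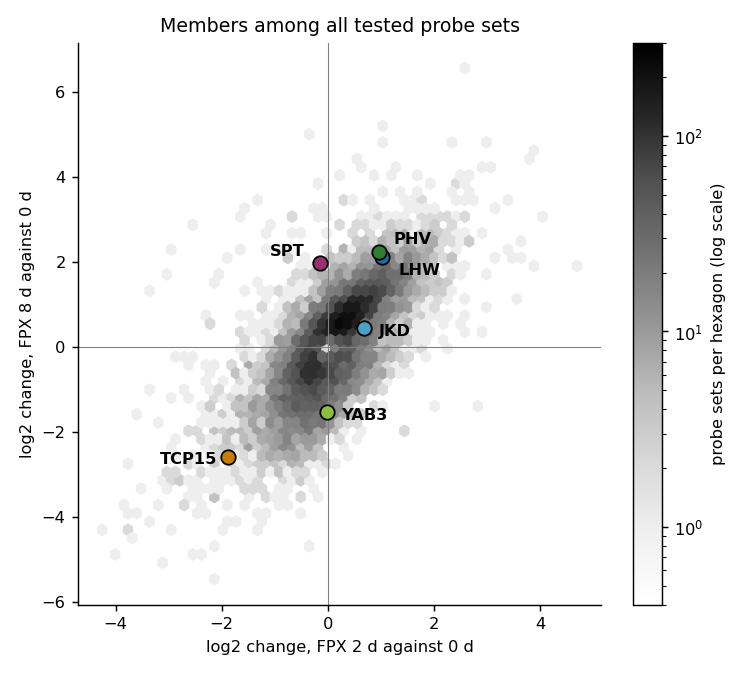
log2 change at 8 d (y axis) against that at 2 d (x axis), both relative to the same 0 d arrays, for all 11228 probe sets (grey hexagons, darker for more probe sets on a log scale) with the 6 genes as coloured points. LHW and PHV lie together at 1.02 and 2.12 and at 0.97 and 2.25, and SPT and YAB3 lie at −0.14 and −0.02 on the x axis.

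The genes next to TCP15 on the chromosome went opposite ways. Of the 12 adjacent protein-coding genes, 3 were measured by name. HVA22C, on one side of TCP15, rose by 1.45 at 8 d on the log2 scale (limma adjusted p = 2.94e-08), and AT1G69680, on the other side, fell as TCP15 did, with a change of −0.82 (adjusted p = 3.49e-05). AT4G00170, beside YAB3, had a change of 0.31 (adjusted p = 0.00267), no more than the median of 0.36 of all probe sets.

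Markers of green leaf tissue were lower at 8 d, as YAB3 and TCP15 were, while PHV and SPT were higher (log2 changes of 2.25 and 1.98). Of 9 such markers 5 were measured, and their summed signal ranged over 61560 to 69436 (0 d), 53236 to 56556 (2 d) and 26098 to 30316 (8 d). Of the 5, 3 fell at 2 d and 5 at 8 d (backgrounds 28.1% and 36.1%). Their median log2 change at 2 d was −0.26, beside −1.88 for TCP15 and −0.02 for YAB3, and at 8 d it was −1.48, beside −2.58 and −1.53. The count at 2 d was 5 with array medians set equal, 1 after quantile normalization and 2 scaled on hybridization controls. The RCA fall at 8 d did not pass after quantile normalization (−0.16, adjusted p = 0.0712). Of 6 loci listed for the stomatal lineage 2 were measured, STOMAGEN and FMA, and their sum was 631 to 766 (0 d), 295 to 365 (2 d) and 92 to 156 (8 d). STOMAGEN, most of that sum at 0 d and 2 d, changed by −1.45 at 2 d and −3.39 at 8 d. FMA had no called change at 2 d (0.05, limma adjusted p = 0.804), so the lower sum at 2 d was that of STOMAGEN. At 8 d FMA changed by −0.62 (adjusted p = 0.00877), which did not pass scaled on hybridization controls (−0.41, adjusted p = 0.0771). Of 7 markers of phloem and procambium 3 were measured, with a sum of 3323 to 3571 (0 d), 2947 to 3154 (2 d) and 2527 to 2824 (8 d). In that list CLE44 rose by 1.65 at 8 d, beside 2.12 for LHW, while CLE41 had a change of −1.44. SWEET11, most of that sum, changed by −0.42 (adjusted p = 0.000722, limma). The SWEET11 change did not pass scaled on hybridization controls (−0.17, adjusted p = 0.108). On the signal as deposited 1 of the 3 was called higher at 8 d and 2 lower (backgrounds 54.9% and 36.1%). Of 7 loci listed as root markers 2 were measured, PYK10 and NAI2, with a sum of 17415 to 17631 (0 d), 13315 to 14281 (2 d) and 13539 to 14710 (8 d). At 2 d PYK10, most of that sum, changed by −0.31 and NAI2 by −0.55, and at 8 d by −0.39 (adjusted p = 0.000506) and −0.02 (adjusted p = 0.856), beside rises of LHW and JKD. The PYK10 change at 8 d did not pass after quantile normalization (0.15, adjusted p = 0.108) or scaled on hybridization controls (−0.14, adjusted p = 0.187). Nor did its change at 2 d (−0.04, adjusted p = 0.696, and −0.20, adjusted p = 0.0718). NAI2 stayed a called fall at 2 d under the other scalings. At 8 d NAI2 passed as a fall with array medians set equal (−0.27, adjusted p = 0.0225) and as a rise after quantile normalization (0.25, adjusted p = 0.0329). The other loci of the root list were absent from the table. Whether PYK10 and NAI2 follow root tissue alone in whole seedlings is not shown by these data, so root content was not measured. In these lists 0 measured markers were at a signal of 0 in any group. That was set in advance, as the lowest signal of the whole table was 2.79, and it does not show detection. The part of the markers in the changes of the 6 genes was not tested.

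**Figure D5:**
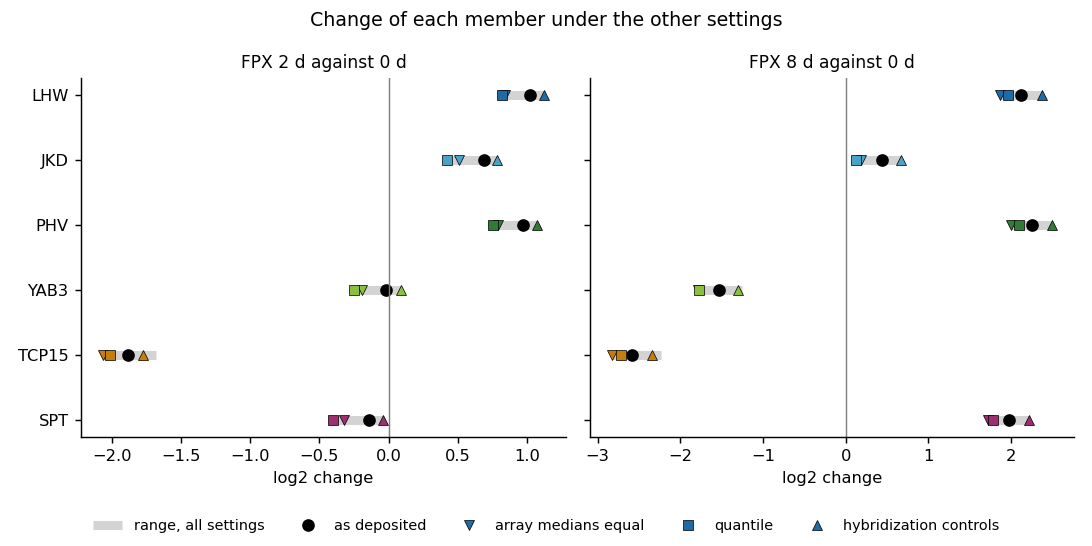
log2 change of each of the 6 genes (x axis) at 2 d and at 8 d against 0 d, with the signal as deposited (black circle), with array medians set equal, after quantile normalization and scaled on hybridization controls (coloured marks), and the range over all settings tried (grey bar). JKD at 8 d runs from 0.12 to 0.67, YAB3 at 2 d crosses 0, and the other 8 d changes keep their sign.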

How the data were processed

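The authors deposited 1 table of array intensity for 9 arrays, made with MAS5 per the submitters' processing notes. The step that set the arrays to a common level and the rule that chose the probe sets are not given in the sources used here. On each array the upper quartile of signal was 1046 to 1103. Precision rests on how many arrays there are, and signal over background is unknown because no detection calls were used. Per the series' design text, the raw data behind the 0 d values are also those of another series, and a batch cannot be told apart from FPX in contrasts with 0 d.

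Of 11249 rows, 21 Affymetrix controls were left out. Names came from the platform annotation, with symbols brought up to date through RefSeq gene identifiers of assembly TAIR10.1 (5962 of 5981 probe sets of 1 gene matched), while 222 probe sets had several genes and 5025 were not listed. Group means were fitted with limma 3.58.1 in R 4.3.3 on log2(signal + 16) over all probe sets, with Benjamini-Hochberg adjustment and a threshold of 0.05. The fit was tested on simulated data. Whether arrays of a group stand for separate cultures is not in the labels, so the p-values reflect array-to-array spread alone, possibly technical. Intervals are 95%. Genes most like each member were the 2 nearest by distance among genes with a symbol of their own, and list genes could be named where measured. The members and lists were chosen with earlier results of these data known, and the gene pairs set against each other within arrays after their values were seen. No sequence was used.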

Additional observations from a re-analysis of the deposited data

Results flagged for a closer look

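For 5 of the 6 genes the change on FPX at 8 d differed from that at 2 d, by the limma test of the difference itself, in which days on FPX and seedling age cannot be told apart. LHW gained another 1.10 on the log2 scale (adjusted p = 2.38e-07) and PHV another 1.29 (adjusted p = 4.2e-06). For both, every 8 d array lay above every 2 d array. SPT differed by 2.12 (adjusted p = 1.73e-08), with 1385, 1251 and 1229 at 8 d against 265, 294 and 292 at 2 d. YAB3 differed by −1.52 (adjusted p = 5.33e-07) and TCP15 by −0.70 (adjusted p = 0.000767), and for both every 8 d array lay below every 2 d array. Of all probe sets, 76.0% passed the same test, and 79.7% had 8 d and 2 d arrays that did not overlap.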

How the results depend on the processing

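Another 18 settings were tried: pseudocounts of 1 and 64, leaving out the 2807 dimmest probe sets, 3 other scalings, an intensity trend, only the arrays compared, a replicate block and each array left out in turn. The changes of LHW, PHV and TCP15 in all 3 contrasts, and those of YAB3 and SPT at 8 d against 0 d and against 2 d, kept their direction and their call under all 18. The YAB3 change at 2 d, not called, (−0.016) turned to 0.086 under the scaling on hybridization controls, 0.068 without 0 d replicate 1 and 0.063 without FPX 2 d replicate 1, and ran between −0.063 and 0.068 with an array left out. It was largest in size with array medians set equal (−0.19) and after quantile normalization (−0.25), still not called. JKD at 8 d was no longer called with array medians set equal (0.19) or after quantile normalization (0.12), where SPT at 2 d became a call (−0.32 and −0.40); the cause was not tested. With an array left out, 4 of the 6 genes were called at 2 d, 6 at 8 d and 5 or 6 between 2 d and 8 d, and the probe sets called numbered 7496 to 8197, 9969 to 10209 and 7919 to 8586. With the replicate block 4 of the 6 genes were called at 2 d, 6 at 8 d and 5 between them, as without it, and 8115 probe sets at 2 d, against 8160. The labels give no meaning to the replicate numbers, and the deviations of same-numbered arrays correlated at r = −0.091 to 0.106, so they were not taken as pairs, although the shared number was the best match in 14 of 18 comparisons, a hint from the data and not from the design. With array medians set equal, 46.3% of called probe sets were higher at 2 d and 51.7% at 8 d, against 61.3% and 60.3%, and under quantile normalization 51.1% at 2 d. Without a background level, the limit for dim probe sets such as JKD is unknown. The same holds for the sizes of the YAB3 and TCP15 falls. Their mean signals at 8 d (116.0 and 124.8) were below that of JKD (163.0).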
